A study of Schizosaccharomyces pombe with 36 samples.

Results

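The region described here is a stretch of fission yeast (*Schizosaccharomyces pombe*) chromosome II that lies immediately left of the site where the replication fork barrier *RTS1* was inserted. It was chosen by position alone, as the 300-bp bins whose centres fall between 790000 and 851000, and it holds 204 of the 41912 bins of the genome (chrII:789901-851100, 61200 bp). No bin of it lies inside an insert, so its coordinates are the same in every data set. It holds 52 annotated genes, of which 19 are protein-coding and 32 are non-coding RNAs.

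Polymerase usage sequencing (Pu-seq) was used to ask which polymerase copied each strand, with the barrier off and on. Each strain carries a polymerase mutant that incorporates too many ribonucleotides, in Pol δ (*cdc6-L591G*), Pol ε (*cdc20-M630F*) or Pol α (*pol1-L850F*), and lacks ribonucleotide excision, so that the 5′ ends counted per strand mark the work of that polymerase. A Pol δ and a Pol ε library of the same background form a pair, and 16 pairs and 4 Pol α libraries were used. Strains were grown asynchronously.

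The 4 barrier-off and 4 barrier-on pairs carry *RTS1-rRFB*, in which *RTS1* and the ura4 marker stand at the chromosome II site and copies of the ribosomal DNA barrier stand further right. The label of 1 of them, the *rnh201-d* pku70+ off pair, names no array. All carry *RTS1natural::Phleo*, the native *RTS1* replaced by a marker. Off pairs have *rtf1::nat*, a deletion of the gene for the protein that activates *RTS1*, and on pairs have rtf1+. The 4 backgrounds are *rnh201-d* (the catalytic RNase H2 gene deleted) or *rnh201-RED* (a separation-of-function allele), each with pku70+ or *pku70-d* (the Ku end-binding protein). Single pairs carry, with the barrier on, *RTS1-rRFB* with rtf1 under the adh1 promoter (adh-rtf1, *rnh201-d*), a tandem *RTS1* before the array (*rnh201-d*), a further *RTS1* in the opposite orientation (inverted, *rnh201-RED*, adh1 promoter) and *RTS1* without the array (*rnh201-d*, native *RTS1* not listed as replaced). No pku70 deletion is listed for these single pairs. The 4 ChrI-construct pairs (*rnh201-d*, pku70+) carry *RTS1* or the array on chromosome I and leave chromosome II as it is. They are called unmodified below. Of their libraries, both of ChI-4740:TuraR and the Pol ε library of ChI-3220:10xrDNA list *rtf1::nat*, and the others list no rtf1 deletion.

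A replication origin fires forks to both sides. The leading strand of each fork is made by Pol ε and the lagging strand by Pol α and Pol δ, so a rightward fork leaves Pol ε on the Watson (forward) strand and Pol δ on the Crick strand. Fission yeast origins are AT-rich, mostly intergenic stretches that the origin recognition complex binds through the AT-hook motifs of its Orc4 subunit, and each fires in only a part of the cell cycles. An active origin therefore shows as a sudden rise in the share of rightward forks, and a zone of fork termination as a slow fall.

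In the region 5 origins were found. They were placed in the unmodified pairs, as the highest point within 10 bins of the step in rightward share between the 5 bins to the right and the 5 bins to the left, with a step of at least 10 points. The rightward share is the mean of the Pol ε share on Watson and the Pol δ share on Crick, each library scaled to its total, and the step is called the strength. Within 1500 bp of each, the most AT-rich 300 bp was taken from the RefSeq sequence of ASM294v3. Printed here are those at the strongest origin and at the pair of origins nearest *RTS1*, with runs of 10 or more A or T in capitals.
Origin at 823.8 kb, chrII:823600-823899, plus strand: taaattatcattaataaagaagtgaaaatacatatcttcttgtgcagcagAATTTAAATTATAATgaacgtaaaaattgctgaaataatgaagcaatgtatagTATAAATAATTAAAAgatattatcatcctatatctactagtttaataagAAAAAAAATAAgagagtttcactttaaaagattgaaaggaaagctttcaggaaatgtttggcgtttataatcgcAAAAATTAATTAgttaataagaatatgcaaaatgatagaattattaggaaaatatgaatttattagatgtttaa
Origin at 842.7 kb, chrII:842662-842961, plus strand: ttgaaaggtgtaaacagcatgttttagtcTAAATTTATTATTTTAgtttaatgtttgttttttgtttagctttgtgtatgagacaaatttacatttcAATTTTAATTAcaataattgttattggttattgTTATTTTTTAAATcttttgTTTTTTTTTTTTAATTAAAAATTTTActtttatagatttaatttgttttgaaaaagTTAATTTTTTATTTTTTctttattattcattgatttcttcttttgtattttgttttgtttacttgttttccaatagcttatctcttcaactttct
Origin at 847.5 kb, chrII:847368-847667, plus strand: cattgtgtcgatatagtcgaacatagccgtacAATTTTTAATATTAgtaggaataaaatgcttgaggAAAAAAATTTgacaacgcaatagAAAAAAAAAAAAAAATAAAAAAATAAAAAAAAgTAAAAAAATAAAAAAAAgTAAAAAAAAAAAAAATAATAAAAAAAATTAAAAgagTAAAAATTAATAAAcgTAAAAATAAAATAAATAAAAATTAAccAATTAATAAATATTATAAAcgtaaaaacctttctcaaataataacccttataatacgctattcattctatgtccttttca

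The AT content of these stretches was 78.3% at 823.8 kb, 82.0% at 842.7 kb and 82.0% at 847.5 kb, against 63.7% over the region. Each was the richest of its surroundings by choice. Of all 3000-bp stretches of the genome, taken every 300 bp, 8.58%, 1.28% and 1.28% hold 300 bp as rich or richer. The longest uninterrupted A/T run was 15, 26 and 33 bases. Of all 300-bp windows of the genome, not chosen for AT content, 5.63% hold a run of at least 20 bases. The share among windows chosen as the richest of their surroundings was not computed. The stretch at 823.8 kb lies between genes, left of lsc1 (a subunit of succinate-CoA ligase). The one at 842.7 kb overlaps the non-coding RNAs SPNCRNA.1389 and SPNCRNA.4899, and mfs3, a transporter of the major facilitator superfamily, lies just to its right. The one at 847.5 kb overlaps SPNCRNA.4900, left of cys11, a cysteine synthase. The other pair of origins had 72.3% AT between clu1 and SPNCRNA.4882 (803.7 kb) and 79.0% AT at SPBC36.02C (837.0 kb). Of the same 3000-bp stretches of the genome, 72.9% and 6.47% hold 300 bp as rich or richer. The origin at 803.7 kb thus did not stand out in AT content.

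In the unmodified pairs the origin at 823.8 kb was the strongest, with a step of 62.6 ± 6.95 points (SD, n = 4), rank 9 among the 221 origins found by the same rule on the bins that share coordinates in all files (chromosome I to 3.2 Mb and chromosome II to the end of the region). The origins at 847.5 kb and 803.7 kb followed with 39.8 ± 8.05 and 39.7 ± 6.70 points. Those at 842.7 kb (18.7 ± 4.65) and 837.0 kb (13.2 ± 3.85) were below the median of 27.1 points. Just outside the threshold lay steps at 792.6 kb (9.32 points) and 832.8 kb (7.31 points). The number of origins depends on the rule. It was 7 with a threshold of 5 points or steps over 3 bins, and 4 with steps over 10 bins, none near 837.0 kb. With a threshold of 20 points it was 3, at 803.7, 823.8 and 847.5 kb. The origin at 847.5 kb is the one that feeds *RTS1* most directly, 3.98 kb left of the end of clr6 (a class I histone deacetylase gene) and 4.31 kb left of the start of spo9 (a prenyl diphosphate synthase gene needed for sporulation), between which the constructs were inserted at the spo9 locus.

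Libraries held between 3304406 and 84420592 counts (median 13633601), of which 13770 to 395287 fell in the region, and no bin of it lacked counts on a strand in any library. Intervals below are 95% and cover counting error only. Nothing in the labels says that libraries of a group came from separate cultures beyond their genotypes, so the exact p-values measure only the spread between these pairs. Those of edgeR and limma also draw on the spread in other windows, so they can be far smaller. Libraries of a group were not equally alike, which the exact tests ignore. For Pol δ, log bin counts of the region correlated at 0.966 between ChI-3220:TuraR and ChI-5234:TuraR. Between ChI-3220:TuraR and ChI-3220:10xrDNA the correlation was 0.579. Among off Pol δ libraries it was 0.959 within *rnh201-d*, 0.538 within *rnh201-RED* and 0.415 to 0.479 between the alleles. Counts over the edited genes were set against 10 kb to either side. Over rtf1 they were 0 to 0.00452 of the flanks in 9 of the 10 barrier-off libraries and 0.222 in the *rnh201-d* pku70+ Pol δ library labelled barrier off, and 0.531 to 1.14 in all others, also in the 3 unmodified libraries that list *rtf1::nat*. The barrier-off values are given below with that library, and leaving out its pair is among the alternatives. Over pku70 they were 0.565 to 0.842 in the 4 libraries labelled *rnh201-d* *pku70-d*, whose label names an insertion of leu2, against at most 0.000291 in the *rnh201-RED* *pku70-d* libraries. The inverted pair's genotypes name the opposite polymerase to its titles (and *cdc6-L591M* for L591G). The titles were followed. Read so, its step was positive at every origin of the region, as in the other pairs (46.1 points at 823.8 kb). Swapped polymerases would give steps of the opposite sign.

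The rightward share of the region did not differ between barrier off and on beyond the spread between pairs, and its Watson and Crick parts differed in opposite directions. Over all 204 bins the rightward share was 48.3%, 47.7%, 49.1% and 48.1% in the off pairs (*rnh201-d* pku70+, *rnh201-d* *pku70-d*, *rnh201-RED* pku70+, *rnh201-RED* *pku70-d*) and, in the same order, 47.4%, 48.8%, 49.7% and 49.7% in the on pairs. The groups overlapped and the mean difference was 0.570 points, in an exact two-sided permutation test of 4 against 4 pairs with p = 0.40, where the smallest p possible is 0.0286. On Watson alone (Pol ε) the difference was -1.44 points (lower with the barrier on in 4 of 4 backgrounds, exact p = 0.20). On Crick alone (Pol δ) it was 2.58 points, with groups apart (higher in 4 of 4, exact p = 0.0286). For either strand, sign flips within the 4 backgrounds gave exact p = 0.125, the smallest possible for that test. None of the 20 windows of 3000 bp had groups that did not overlap, against 0.859% of the 4189 windows of the genome, and limma on the logit of the share called none of them, against 0.31% (0 in the region at an unadjusted p under 0.05). The largest difference of a window was 3.07 points.

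**Figure D1:**
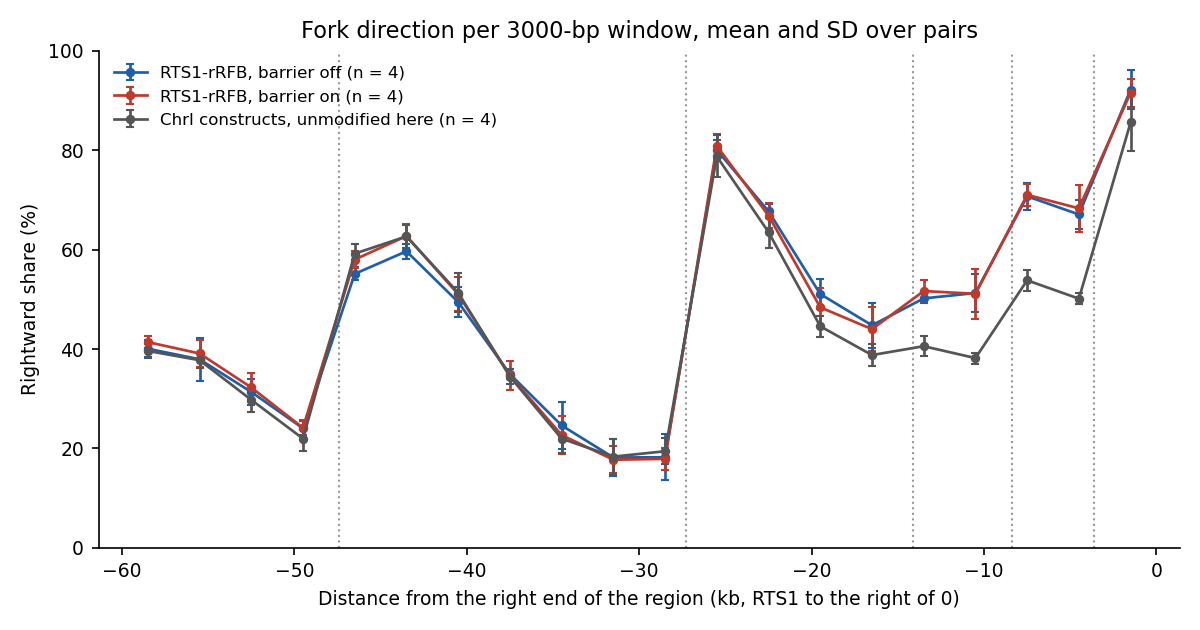
Rightward share (%) per 3000-bp window against the distance in kb from the right end of the region, as mean and SD of 4 barrier-off, 4 barrier-on and 4 unmodified pairs, with dotted lines at the 5 origins. The off and on means lie within 3.07 points of each other in every window, and both lie above the unmodified pairs in the last 20 kb, most in the 6 kb before the last window.

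The course of the share followed the origins. In the off pairs it fell to 24.04% at 800.1 to 803.1 kb, rose to 59.7% right of the 803.7-kb origin, and fell again to 18.2% in both windows from 818.1 to 824.1 kb. Across the 823.8-kb origin it rose to 80.03%, and then fell to 44.8% at 833.1 to 836.1 kb. From there it climbed in steps over the 3 origins nearest *RTS1* to 92.2% in the last 10 bins (848.1 to 851.1 kb). Between the origins at 803.7 and 823.8 kb the middle of the fall lay at 813.19 ± 0.23 kb in the off pairs and 813.16 ± 0.27 kb in the on pairs (exact permutation test, p = 0.94, n = 4 each). Right of the 823.8-kb origin that midpoint lay at 830.14 ± 0.44 kb (off) and 829.80 ± 0.52 kb (on), with p = 0.34 in the same exact test.

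At none of the 5 origins did the strength differ between off and on beyond the spread between pairs. At 823.8 kb the step was 71.6, 67.0, 59.4 and 64.1 points in the off pairs, in the order of backgrounds above, and 71.7, 63.1, 65.8 and 62.9 points in the on pairs. At 847.5 kb it was 25.2, 25.5, 22.6 and 25.0 points off and 24.3, 21.8, 23.999 and 17.6 points on. The on pairs were lower there in 3 of 4 backgrounds and the groups overlapped (mean difference -2.63 points, exact p = 0.17). At 803.7, 837.0 and 842.7 kb the differences were 3.24, 2.02 and 0.257 points (exact p = 0.11, 0.43 and 0.91). No origin of the region had groups apart, and 0.452% of the 221 origins did.

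A larger difference was that between strains with and without an insert at the chromosome II site. It was looked for after seeing the data, and it lay at the origins nearest *RTS1*. Between 842.7 and 847.5 kb, the stretch over mfs3 up to the last origin, the rightward share was 53.1%, 51.7%, 49.5% and 51.0% in the unmodified pairs (ChI-3220:10xrDNA, ChI-3220:TuraR, ChI-4740:TuraR, ChI-5234:TuraR). In the off pairs it was 72.7%, 67.7%, 67.2% and 70.3%. The lowest off pair stood 14.1 points above the highest unmodified pair, and the means differed by 18.2 points (exact permutation test, p = 0.0286, the smallest this design allows). In the on pairs it was 71.5%, 67.2%, 72.1% and 73.1%, with a mean 1.504 points above the off pairs (exact p = 0.43).

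The 4 single pairs with an insert at this site were also above every unmodified pair in that stretch. The share was 74.6% (73.97 to 75.22) in the adh-rtf1 pair, 70.3% (69.5 to 71.2) in the tandem pair and 70.8% (70.01 to 71.7) in the inverted pair. The pair with *RTS1* without the array, which shares *rnh201-d* and the listed native *RTS1* with the unmodified pairs, was lowest at 62.7% (61.8 to 63.7). That is 12.02 points above the mean of the 3 pairs with the same TuraR construct on chromosome I, and its genome-wide contrast between rightward and leftward windows was also the lowest (51.3 points, the others 52.0 to 70.7). All 12 pairs with an insert lay above all 4 without one.

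**Figure D2:**
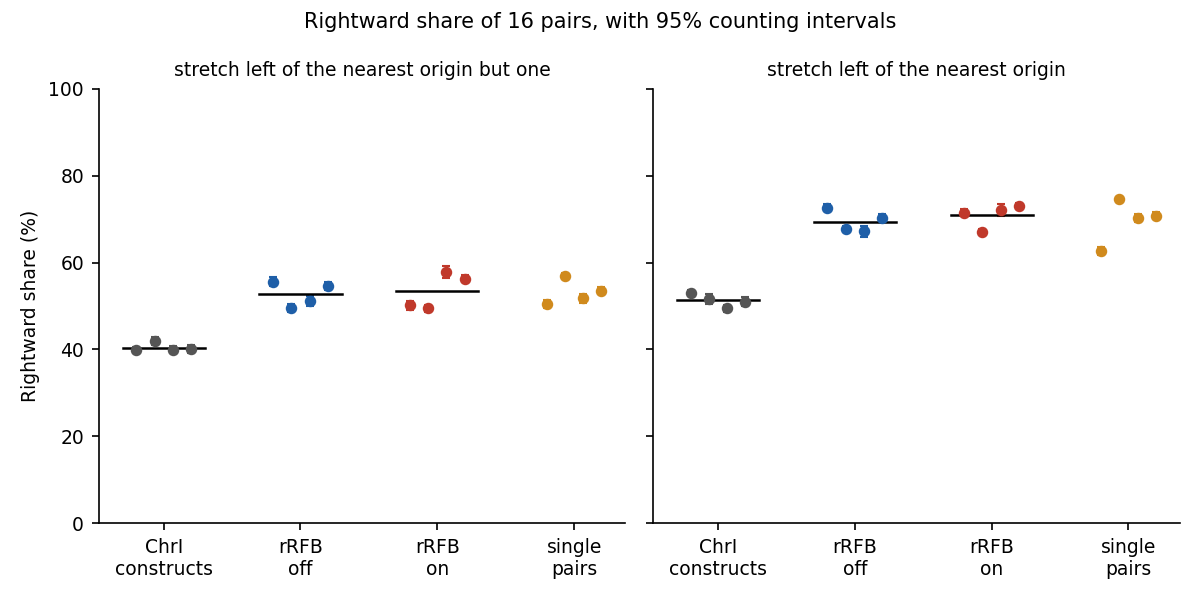
Rightward share (%) of each of the 16 pairs between 837.0 and 842.7 kb (left) and between 842.7 and 847.5 kb (right), with 95% counting intervals as error bars and group means as lines. All 12 pairs with an insert on chromosome II lie above the 4 unmodified pairs in both stretches, and *RTS1* without the array is the lowest of them on the right.

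In points the difference was smaller to both sides of this stretch. To the right, between 847.5 kb and the end of the region, the share was 91.2 ± 4.06% in the off and 84.9 ± 5.99% in the unmodified pairs. The groups overlapped there (6.21 points, exact p = 0.14). On the logit scale the last window (848.1 to 851.1 kb) differed by 0.716 ± 0.431 (SE, limma adjusted p = 0.38). The window at 845.1 to 848.1 kb differed by 0.708 ± 0.067 on that scale. To the left, between 837.0 and 842.7 kb, over SPBC36.02C and non-coding RNAs, the share was 52.8 ± 2.84% in the off pairs and 40.5 ± 0.967% in the unmodified pairs (12.3 points, exact p = 0.0286, n = 4 each). Between 823.8 and 837.0 kb it was 61.1 ± 1.07% and 55.4 ± 2.502% (5.70 points, exact p = 0.0286). Between 803.7 and 823.8 kb it was 37.4 ± 1.51% and 38.2 ± 0.176%, a difference of -0.843 points (exact p = 0.40). In the first stretch, 789.9 to 803.7 kb, the difference was 1.31 points (exact p = 0.26). For the region as a whole the off pairs were 3.84 points higher (48.3 ± 0.597% against 44.5 ± 0.550%, exact p = 0.0286). The Watson part of the share differed by 6.42 points (exact p = 0.0286), and the Crick part by 1.26 points with groups that overlapped (exact p = 0.31).

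Of the 20 windows 6 had all 4 off pairs above all 4 unmodified pairs, against 6.38% of the 1349 windows of the shared coordinates (11.5% in either direction). The differences at 842.1 to 845.1 kb (70.7 against 53.8%) and 845.1 to 848.1 kb (67.1 against 50.1%) were 16.9 points each, and outside the region window differences lay between -10.4 and 12.3 points. In limma on the logit of the share, with Benjamini-Hochberg adjustment over all 1349 windows, 845.1 to 848.1 kb ranked first (adjusted p = 1.66e-14) and 842.1 to 845.1 kb second (adjusted p = 6.09e-14). In the region 6 windows, all from 830.1 to 848.1 kb, were called higher and none lower, and 5.49% of all windows were called higher and 3.48% lower (8.97% in either direction). With single pairs left out, the limma adjusted p was at most 1.9e-08 at 845.1 to 848.1 kb and 1.5e-07 at 842.1 to 845.1 kb. With the rnh201 allele and pku70 in the fit, these windows had limma adjusted p = 4.8e-07 and 3.1e-07. In that setting 4 of the region's windows were called, of 10 in all. This fit was added after an edgeR test had made no call. The edgeR test of the same contrast on the counts of each strand, as the interaction of polymerase and insert with Benjamini-Hochberg adjustment and likewise added after seeing the data, called none of 2698 strand windows, 0% (83 at an unadjusted p under 0.05, 4 of them in the region, and 3 in all by DESeq2).

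Tested in the libraries of 1 polymerase, counts were called different between off and unmodified strains inside and outside the region. The share of strand windows called in the region was below that of all strand windows for Pol δ and above it for Pol ε. In edgeR with Benjamini-Hochberg adjustment, 5 of the region's 40 strand windows were called for Pol δ, 1 higher and 4 lower in the off libraries, where 20.9% of all strand windows were called (8.56% higher, 12.3% lower). Pol δ was lower on Crick at 809.1 to 812.1, 815.1 to 818.1 and 833.1 to 836.1 kb (log2 -1.30, -1.25 and -1.31) and on Watson in the last window (-1.89), and higher on Watson at 815.1 to 818.1 kb (0.98). For Pol ε 7 of 40 were called, 4 higher and 3 lower, against 10.7% of all (4.74% higher, 5.93% lower). Pol ε was higher on Watson at 812.1 to 815.1, 815.1 to 818.1, 830.1 to 833.1 and 839.1 to 842.1 kb (log2 0.71, 0.97, 0.97 and 1.48), and lower on Crick at 815.1 to 818.1, 833.1 to 836.1 and 839.1 to 842.1 kb (-1.34, -1.20 and -0.67). In 3 of these strand windows both polymerases were called the same way. These counts depend on single libraries. The *rnh201-d* pku70+ off pair left 1 call for Pol δ when its Pol δ library was left out and 0 for Pol ε when its Pol ε library was, and the ChI-3220:10xrDNA pair, treated likewise, 18 and 14. Without the Pol ε library of any of the other 3 unmodified pairs, 1 was left for Pol ε.

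The origin at 847.5 kb had a smaller step, in points, in strains with the insert. Its step was 33.8, 46.0, 31.9 and 47.5 points in the unmodified pairs, in the order above, and at most 25.5 points in every pair with an insert. The off mean was 24.6 ± 1.33 against 39.8 ± 8.05 points (difference -15.2, exact p = 0.0286, n = 4 each). The single pairs had 18.1 (*RTS1* without the array), 15.6 (adh-rtf1), 14.5 (tandem) and 11.98 points (inverted). Since this origin was placed in the unmodified pairs, its place favours them: placed in the off pairs it lay at 847.8 kb, where the difference was -10.7 points (exact p = 0.0286). The strengths of 6.79% of all origins did not overlap between these groups. Just left of the 847.5-kb origin the share was 42.4% to 47.1% in the unmodified and 59.8% to 68.2% in the off pairs. In the last 10 bins the means were 85.6% and 92.2%. How these levels bear on a step in points was not tested. On the logit scale the window at 845.1 to 848.1 kb, which spans this origin, differed by 0.708 ± 0.067 (SE). The last window differed by 0.716 ± 0.431 (limma adjusted p = 0.38). The step itself was not computed on that scale. Whether this origin fired less often was not tested.

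**Figure D3:**
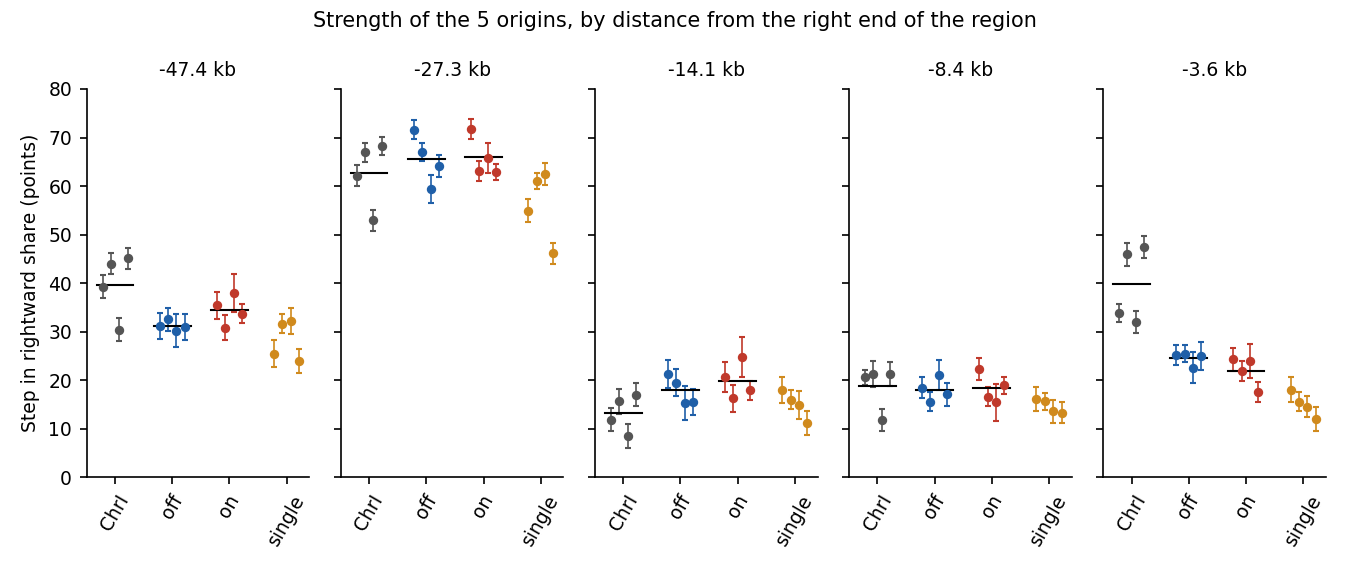
Strength of the 5 origins (step in rightward share, points) in the unmodified (ChrI), off, on and single pairs, one panel per origin titled with its distance from the right end of the region, with 95% counting intervals and group means as lines. The off and on means lie close in each panel, and only in the rightmost panel (847.5 kb) are the unmodified pairs above all 12 others.

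The other origins overlapped between the off and unmodified pairs. The differences were -8.49 points at 803.7 kb (exact p = 0.11), 2.94 at 823.8 kb (p = 0.49 in the exact test), 4.62 at 837.0 kb (exact p = 0.17) and -0.698 at 842.7 kb (exact p = 0.86). The genome-wide contrast of each pair, the span from the 5th to the 95th percentile of the share over windows, was 55.6 to 70.7 points in the off and 52.8 to 67.0 points in the unmodified pairs. The insert, the replaced native *RTS1* and the set of strains cannot be told apart for the *RTS1-rRFB* pairs. *RTS1* without the array has no replacement listed. The off pairs also have rtf1 deleted, while counts over rtf1 were 0.603 to 1.14 of the flanks in the unmodified libraries. They further include *rnh201-RED* and *pku70-d* backgrounds, which the unmodified pairs lack. The part of the rtf1 deletion was not tested. In all, 39 exact tests of stretches, measures and origin positions were run for this comparison, of which 15 gave the smallest p possible, and the lowest p adjusted over them was 0.074.

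The share of Pol δ, averaged over both strands, stood apart between barrier off and on close to *RTS1*. A canonical fork leaves 1 strand to each polymerase in either direction, so this average does not depend on fork direction. Between 842.7 and 847.5 kb it was 50.6%, 45.5%, 52.1% and 47.9% in the off pairs and 57.8%, 55.3%, 59.1% and 54.6% in the on pairs. It was higher with the barrier on in 4 of 4 backgrounds and the groups did not overlap (7.68 points, exact p = 0.0286 with backgrounds not matched). Sign flips within the 4 backgrounds gave exact p = 0.125, the smallest possible for that test, here and in the last 10 bins. Of the 39 exact tests of off against on without matching, 3 gave p = 0.0286. The others at that p were the last 10 bins and the Pol δ share on Crick over the whole region (2.58 points). The lowest p adjusted over the 39 was 0.37. The unmodified pairs had 54.4% to 57.0%, above all 4 off pairs, which both comparisons share. Windows in which the groups were apart for this share numbered 6 of 20 between off and unmodified pairs, all lower in the off pairs, against 6.52% of the 1349 windows, and limma called none of the 20 and none of all windows. The single pairs, all with the barrier on, had 53.5% (tandem) to 61.6% (inverted).

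In the last 10 bins, over cys11 and most of clr6, the Pol δ share was 49.97%, 48.6%, 44.1% and 50.3% off and 50.5%, 50.8%, 52.05% and 53.2% on. The mean was 48.2 ± 2.88% off and 51.6 ± 1.22% on (3.41 points, exact p = 0.0286, n = 4 each). The groups were apart by only 0.178 points, and without the *rnh201-RED* pku70+ off pair, the lowest, the difference was 2.02 points. As a mean of single bins it was 3.17 points (exact p = 0.11) and in the last 5 bins 2.40 points (exact p = 0.46), neither of them past the threshold. Of the region's 20 windows 2 had groups apart for this share, both higher with the barrier on, against 1.12% of the 4189 windows. In limma on the logit of the Pol δ share none of the 20 passed (3 at an unadjusted p under 0.05), while 0.119% of all windows did, and the lowest adjusted p in the region was 0.63 (842.1 to 845.1 kb). With the 4 backgrounds as a block, limma called 2 of the 20, at 842.1 to 845.1 kb (adjusted p = 0.014) and 845.1 to 848.1 kb (adjusted p = 0.0065), both higher with the barrier on, and 9 of all 4189.

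The Pol ε share on the Watson strand, the leading strand of forks about to meet *RTS1*, was 95.9%, 94.3%, 92.6% and 93.0% in the last 10 bins of the off pairs. In the on pairs it was 93.5%, 87.1%, 91.4% and 87.6%, lower in 4 of 4 backgrounds with 1 on pair inside the off range (-4.06 points, exact p = 0.086). The unmodified pairs had 75.5% to 89.7%, below every off pair. The inverted pair had 67.7% (66.2 to 69.2) and *RTS1* without the array 78.5% (77.1 to 79.9). The Pol δ share on Crick was 90.4 ± 6.71% off and 93.2 ± 2.999% on (exact p = 0.60).

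The Watson strand was then read in the counts of Pol δ alone. In the last 10 bins Pol δ gave 2.94, 4.34, 4.64 and 5.78 CPM (counts scaled to the library total) per kb on Watson in the off libraries (*rnh201-d* pku70+, *rnh201-d* *pku70-d*, *rnh201-RED* pku70+, *rnh201-RED* *pku70-d*) and 5.11, 10.6, 6.22 and 9.24 in the on libraries. Each background was higher with the barrier on, and the lowest on library lay inside the off range. In the edgeR quasi-likelihood fit over 8378 strand windows of the genome this was the only call in the region among its 40 (log2 change 0.86 ± 0.15 SE, Benjamini-Hochberg adjusted p = 0.027), where 0.143% were called higher and 0.0836% lower (0.227% in all). It rests on few counts, 87 to 234 in the off libraries, and the call was lost in 11 of the 16 fits that each left out 1 library (adjusted p up to 0.34). The unmodified libraries, with 7.74 to 21.5, were above every off library, and the *rnh201-d* pku70+ off library with counts over rtf1 was the lowest of all.

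**Figure D4:**
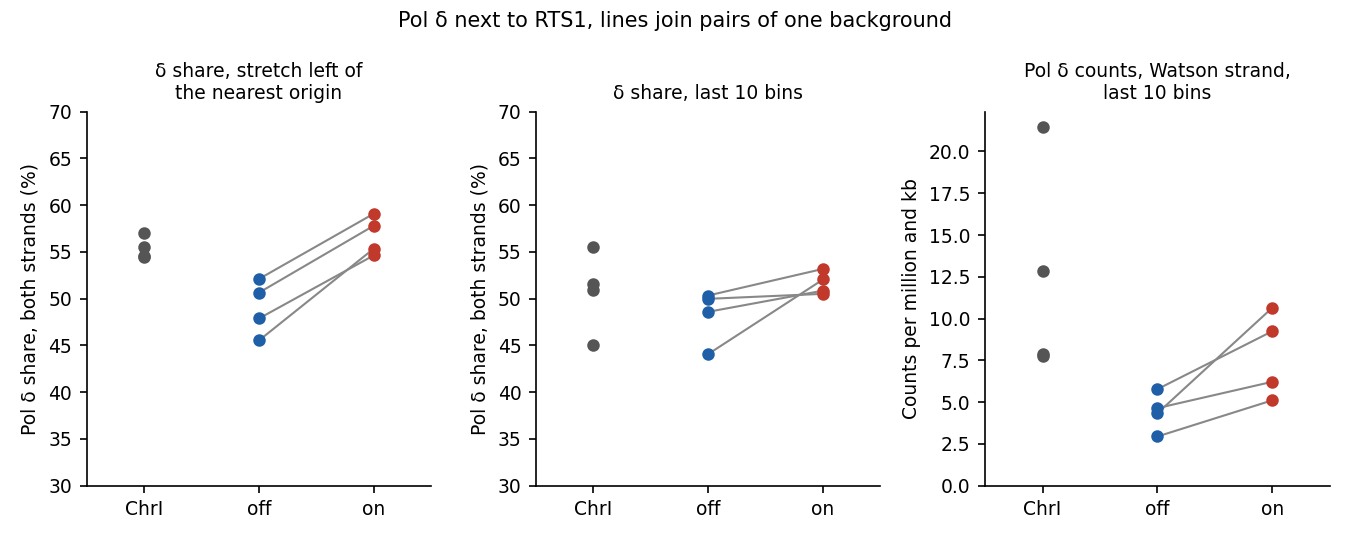
Pol δ share averaged over both strands (%) between 842.7 and 847.5 kb (left) and in the last 10 bins (middle), and Pol δ level on Watson in CPM per kb in the last 10 bins (right), in 4 unmodified (ChrI), 4 off and 4 on pairs. Lines join the off and on pair of 1 background, and all 12 lines rise.

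The test of the interaction of polymerase and barrier called none of the region's 40 strand windows (3 at an unadjusted p under 0.05, and 1 by DESeq2), against 0.251% of all windows (0.143% higher, 0.107% lower). The test in the Pol ε libraries called none either (1 at an unadjusted p under 0.05, 0 by DESeq2), against 0.203% (0.0716% higher, 0.131% lower). On Crick at 845.1 to 848.1 kb, Pol ε fell by 0.43 on the log2 scale and Pol δ changed by 0.31, with edgeR adjusted p of 0.9998 and 0.9993.

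Pol α, which begins each Okazaki fragment, was measured in pku70+ strains with the barrier off and on, 1 library for each rnh201 allele. Its Watson share followed the leftward share from Pol δ and Pol ε over the 20 windows of the region, with Pearson r of 0.83 and 0.98 (*rnh201-d*, off and on) and 0.92 and 0.93 (*rnh201-RED*, off and on), a description over neighbouring windows that share their libraries. In the last 10 bins 4.68% to 10.7% of Pol α counts lay on Watson. The rest lay on Crick, the lagging strand of forks running into *RTS1*.

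On Crick in the last 10 bins the Pol α level was lower with the barrier on in both alleles, at 38.3 against 67.0 CPM per kb in *rnh201-d* (log2 ratio -0.81, -0.91 to -0.70) and 37.5 against 61.7 in *rnh201-RED* (log2 ratio -0.72, -0.79 to -0.64). Over the whole region the Crick ratios were -0.34 and -0.20, and 16 and 17 of its 20 windows were below 0. The last window was the lowest in *rnh201-RED* but only rank 4 in *rnh201-d*, where 815.1 to 818.1 kb (-1.02), 818.1 to 821.1 kb (-0.96) and 839.1 to 842.1 kb (-0.85) were lower. In *rnh201-RED* those windows had 0.22, -0.00274 and -0.35. The Watson ratios of the last 10 bins had opposite signs, -1.87 in *rnh201-d* (54 counts against 273) and 0.56 in *rnh201-RED* (233 against 202). In edgeR no strand window of the region was called for Pol α (5 at an unadjusted p under 0.05, 0 by DESeq2), against 0.179% of all windows (0.0358% higher, 0.143% lower), and the last Crick window had an adjusted p of 0.22. No counts lay over pku70 in the Pol α library of *rnh201-d* with the barrier off, although its label gives no pku70 deletion. The other libraries without such a label had 0.713 to 1.03 of the flanks. Its part in the *rnh201-d* ratios was not tested.

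**Figure D5:**
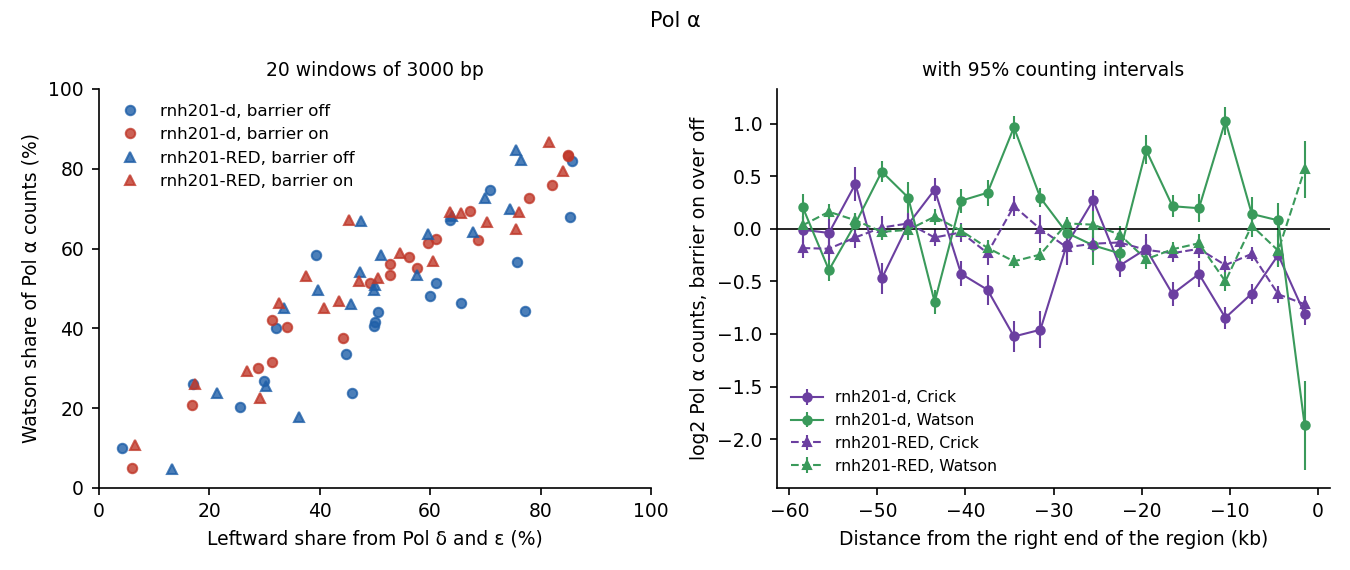
Left, Watson share of Pol α counts (%) against the leftward share from Pol δ and Pol ε (%) in the 20 windows, for 4 Pol α libraries. Right, log2 ratio of Pol α counts with the barrier on over off by distance in kb from the right end of the region, per strand and rnh201 allele with 95% counting intervals: both Crick ratios are below 0 in the last window, at -0.81 and -0.72.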

How the data were processed

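The files hold counts of 5′ ends per 300-bp bin and strand, 72 tables for 36 libraries, deposited by the authors as raw, unscaled counts. Reads had been aligned with Bowtie2 (per the labels), to genomes that hold each strain's insert. The build is not given in the sources used here. Chromosome II has 15133 bins in the unmodified files, as in ASM294v3, and in 29 of 30 library comparisons the bin profile matched best without a shift. No bin of the region was over 4 times or under 0.25 of the median.

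Shares were computed as described above from counts summed over bins, with intervals from binomial variance on the logit scale. Groups came from the titles and genotypes. Exact two-sided permutation tests used pairs as units. Windows of 10 bins, each holding 10 counts or more per library, were fitted with edgeR 4.0.16 (TMM, quasi-likelihood, polymerase by rnh201 allele, pku70 and barrier), and shares with limma 3.58.1. DESeq2 1.42.0, other scalings, other windows and left-out libraries were alternatives. Tests on simulated data covered the edgeR interactions of polymerase with barrier and with insert, the edgeR Pol α fit, and limma on the rightward share, off against on. The other fits were not tested in this way. The text names every origin with its genes, the last 10 bins, clr6 and spo9, and every window called. The members and lists were chosen with earlier results of these data known. The stretches between origins, the limma fits and the tests of the insert per stretch and origin were chosen after seeing the data.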

Additional observations from a re-analysis of the deposited data

Results flagged for a closer look

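In 69 groups of 4 pairs, 2 held a pair far from the other 3 by Dixon's test at 95%, which by chance flags about 1 group in 20. Between 837.0 and 842.7 kb the ChI-3220:TuraR pair had a rightward share of 41.9%, where the other unmodified pairs had 39.9% to 40.05%. At the 842.7-kb origin the ChI-4740:TuraR pair had a strength of 11.8 points, where the others had 20.6 to 21.3.

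In 5 cases the change with the barrier had one sign in both backgrounds of one kind and the other sign in both of the other kind. None of these differences was tested. Between 803.7 and 823.8 kb the rightward share changed by -3.24 points more in pku70+ than in *pku70-d*, and the strength of the 823.8-kb origin by 5.82 points more. These 2 compare backgrounds by their labels, and the libraries labelled *rnh201-d* *pku70-d* held pku70 counts at 0.565 to 0.842 of the flanks. Between *rnh201-d* and *rnh201-RED* the change differed by -6.93 points between 837.0 and 842.7 kb, by -4.72 points between 842.7 and 847.5 kb and by -7.77 points at the 837.0-kb origin.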

How the results depend on the processing

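Of 590 alternatives to 46 results, 499 were scored as the same. For exact tests on all pairs this meant the same direction and the same side of the threshold. With a pair left out it meant the same direction and a change within the SD of the second group, whatever the p-value. For counts of origins it meant an equal or similar number. Depth limits the last 10 bins, where counts on a strand went down to 42 (Pol ε, Crick) and 54 (Pol α, Watson). On minus off, the rightward share of the region was -1.44 points from Watson alone and 2.58 points from Crick alone (exact p = 0.0286), and off minus unmodified from Crick alone was 1.26 points (exact p = 0.31). The Pol δ share of the last 10 bins differed by 3.17 points as a mean of bins (exact p = 0.11) and by 2.40 points in the last 5 bins (exact p = 0.46). With the 4 backgrounds as pairs, sign flips within this block gave 3.41 points there and 7.68 points between 842.7 and 847.5 kb, each with exact p = 0.125, the smallest possible. The rightward difference of that stretch was 12.02 points for *RTS1* without the array. Scaled to the median bin the Pol α Crick log2 ratio in *rnh201-d* was -0.99, and relative to the region it was -0.46 in *rnh201-d* and -0.51 in *rnh201-RED*.

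On minus off, the strength changed sign at 803.7 kb with 3 bins (-0.274 points), at 823.8 kb as a mean of bins (-0.285) or with 3 bins (-0.620), and at 842.7 kb scaled to the median bin (-0.124), to chromosome II (-0.00964) or as a mean of bins (-1.33). Off minus unmodified at 842.7 kb was 3.67 points with 10 bins. None of these differences passed the exact test in the main setting. The cause of these changes was not tested.

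With single pairs left out, on minus off ranged from -0.483 to 4.55 points for the Pol δ share on Crick in the last 10 bins, from -1.70 to 2.38 at the 823.8-kb origin (also below 0 at -1.59 and -0.111) and from -1.07 to 1.28 at 842.7 kb (also -0.569 and -0.0657). Off minus unmodified ranged from -0.278 to 4.99 at 823.8 kb, from -3.02 to 0.167 at 842.7 kb (also above 0 at 0.128 and 0.147) and from 11.4 to 13.4 for the rightward share between 837.0 and 842.7 kb. Calls in the region numbered 0 to 1 for Pol δ with single libraries left out and 0 without covariates, where 11 windows were called in the genome. DESeq2 called 1 for the interaction. The replicate block called 1 for the interaction, 1 for Pol ε and, in limma on the Pol δ share, 2 (9 in the genome). Windows of 5 bins called 1 for Pol α, and in the genome 37 (interaction), 32 (Pol δ), 27 (Pol ε) and 44 (Pol α). Pol ε without covariates had 11 genome calls. For the insert, the calls in the region ranged from 1 to 18 (Pol δ) and 0 to 14 (Pol ε) with single libraries left out, in the genome from 123 to 934 and 0 to 554. DESeq2 called 10 and 11 in the region (860 and 609 in the genome) and for the interaction 3 windows in all, and limma with allele and pku70 called 10 for the rightward and 4 for the Pol δ share. With single pairs left out, limma called 0 to 5 windows in all for the Pol δ share and 63 to 182 for the rightward share against the unmodified pairs. The alternative without extreme bins had none to remove, and Pol α was not fitted with a library left out.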
